A study of Mus musculus with 12 samples.

Results

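The genes described here are 10 mouse genes that mark resident-like tissue macrophages: Folr2, Lyve1, Cd163, Timd4, Vsig4, Stab1, Cbr2, Sepp1, Igf1 and Mrc1. They were taken by symbol from the 24346 gene symbols of the expression tables. Taking them by symbol uses no measured value, but the members were chosen with earlier results of these data known. Of the 10, 8 were among the 11808 genes kept for testing, and Timd4 and Vsig4 were too low. The study measured gene expression by bulk RNA-seq in tumour-associated macrophages of Arg1-RFP mice, whose red fluorescent protein reports arginase 1, an enzyme that breaks down arginine. The mice bore tumours of B16F10, a mouse melanoma line, or of MC38, a mouse colon carcinoma line. Cells were sorted as CD45+ MHCII+ F4/80+ CD11b+ and as negative for lymphocyte markers (B220, CD90.2, NK1.1) and for Ly6G and Ly6C, and then divided into RFP+ and RFP- cells, so every group carries the reporter. The 4 groups of 3 libraries are B16F10 RFP+, B16F10 RFP-, MC38 RFP+ and MC38 RFP-. Titles number the B16F10 libraries 12, 11 and 3 and the MC38 libraries 1, 2 and 3, with the same numbers in both gates. The labels give no age, sex, strain or tumour site, and do not say how the reporter allele was built. The design text gives n = 3, and libraries are not assigned to single mice. The p-values therefore measure the spread between these libraries, which may be technical in part.

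Tissue-resident macrophages settle in organs early, many of them before birth, and maintain themselves there by division, whereas other tumour macrophages arise from blood monocytes. FOLR2, the folate receptor beta that binds folate at the cell surface, is used with LYVE1, TIMD4 and CD163 to recognise resident-like macrophages in many tissues. Most products of these genes take up debris or ligands: hyaluronan, haemoglobin, mannose-bearing glycoproteins, dying cells or complement-coated particles. In bulk libraries, fewer cells of a type and less RNA per cell cannot be told apart.

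The gate matched its labels, because Arg1 ran from 394 to 916 FPKM in the 6 RFP+ libraries and from 40.6 to 125 FPKM in the 6 RFP- libraries. FPKM, the deposited unit, is scaled to transcript length and library size, so levels of different genes can be set side by side. The libraries held 10445 to 11103 genes at 1 FPKM or more. Relative depth was estimated from genes above 0 in at most 6 libraries. The measure was the most common ratio of their FPKM to that in MC38 RFP- number 2, the deepest library by this estimate. It was 3.01 to 3.61 in B16F10 and 1.05 to 1.19 in the other MC38 libraries. If such values come from single reads, values under 1 FPKM rest on fewer reads in B16F10. All 12 macrophage core genes, such as Csf1r, Adgre1 and Lyz2, reached 1 FPKM in every library. Their summed level was 4672 to 12500 FPKM in B16F10 and 23940 to 33650 FPKM in MC38. The 7 melanocytic genes summed to 7771 to 10270 FPKM in B16F10 and to 10.7 to 18.8 FPKM in MC38. Melanoma transcripts were thus present in the B16F10 libraries in both gates.

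Folr2 lies on the minus strand at chr7:101839988-101857194 (GRCm38, the assembly also called mm10), beside the related gene Folr1 at chr7:101858331-101870788. RefSeq lists 2 starts for Folr2 in its GRCm38.p6 table. Their windows, from 250 bases before to 50 bases after the start, are printed because Folr2 is the only member called for the mean gate difference in the fit without a block. Capitals mark a MAF half-site (TGCTGA on either strand), a motif of the factor MAF. The windows are chr7:101857141-101857440 and chr7:101845282-101845581, both read on the minus strand.
Folr2 first start: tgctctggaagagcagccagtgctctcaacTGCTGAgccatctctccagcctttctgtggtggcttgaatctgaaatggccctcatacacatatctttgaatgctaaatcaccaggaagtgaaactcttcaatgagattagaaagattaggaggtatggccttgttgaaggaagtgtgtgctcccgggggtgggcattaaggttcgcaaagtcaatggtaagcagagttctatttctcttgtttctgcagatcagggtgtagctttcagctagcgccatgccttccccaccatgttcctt
Folr2 second start: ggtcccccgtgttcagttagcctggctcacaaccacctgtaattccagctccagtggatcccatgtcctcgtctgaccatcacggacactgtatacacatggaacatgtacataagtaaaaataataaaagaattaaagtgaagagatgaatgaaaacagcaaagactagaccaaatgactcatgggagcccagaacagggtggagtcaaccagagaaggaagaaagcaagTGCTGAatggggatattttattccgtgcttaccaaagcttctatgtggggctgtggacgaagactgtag
The half-site begins 220 bases before the first start and 19 bases before the second. Over all promoters of the table, 19.5% of 32841 windows of the same length hold this half-site.

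Folr2 was several times higher in RFP+ than in RFP- macrophages of both tumours. In B16F10 the RFP+ libraries held 68.9, 45.9 and 58.8 FPKM for numbers 12, 11 and 3, and the RFP- libraries held 16.1, 8.63 and 11.3 FPKM. Each RFP+ library was above every RFP- library, and the 3 ratios within a number ran from 4.28 to 5.32. In MC38 the RFP+ libraries held 72.7, 60.5 and 55.3 FPKM for numbers 1, 2 and 3, and the RFP- libraries held 8.38, 38.4 and 8.19 FPKM. The groups did not overlap here either, but MC38 RFP- number 2 stood well above its 2 fellows, and its ratio was 1.58 against 8.67 and 6.75 for numbers 1 and 3. Group means were 57.9 ± 11.5 and 12 ± 3.78 FPKM in B16F10 RFP+ and RFP- and 62.8 ± 8.91 and 18.3 ± 17.4 FPKM in MC38 RFP+ and RFP- (SD, n = 3 each).

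On the log2(FPKM + 1) scale, which understates the change of low genes, the gate difference of Folr2 averaged over both tumours was 2.14 ± 0.31 (SE), and it passed limma's test with an adjusted p of 0.00941. That call held in each fit that left out 1 of the 12 libraries (adjusted p from 1.77e-05 to 0.0377), and was lost without both B16F10 number 12 libraries (adjusted p = 0.0515) and with no filter on low genes (0.103). Taken tumour by tumour, Folr2 did not pass in the fit without a block for the library number, with 2.2 ± 0.44 and an adjusted p of 0.0873 in B16F10 and 2.08 ± 0.44 and 0.146 in MC38. Libraries of the same number deviated together, so the number was also fitted as a block. With it, limma called Folr2 in B16F10 (SE 0.34, adjusted p = 0.0103) and in MC38 (SE 0.34, adjusted p = 0.031). Without MC38 RFP- number 2 the MC38 difference was 2.77 and passed with no block (adjusted p = 0.000944), as did the B16F10 difference of Folr2 (0.000772). The MC38 call with the block was lost when each library was also scaled to its macrophage core genes (1.89, limma adjusted p = 0.0737). The gate difference in B16F10 minus that in MC38 was 0.12 ± 0.62 for Folr2, with a limma adjusted p of 0.976. Folr2 thus gave no call of a difference between tumours, and an SE of this size leaves differences of over 1 log2 unit undetected.

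**Figure D1:**
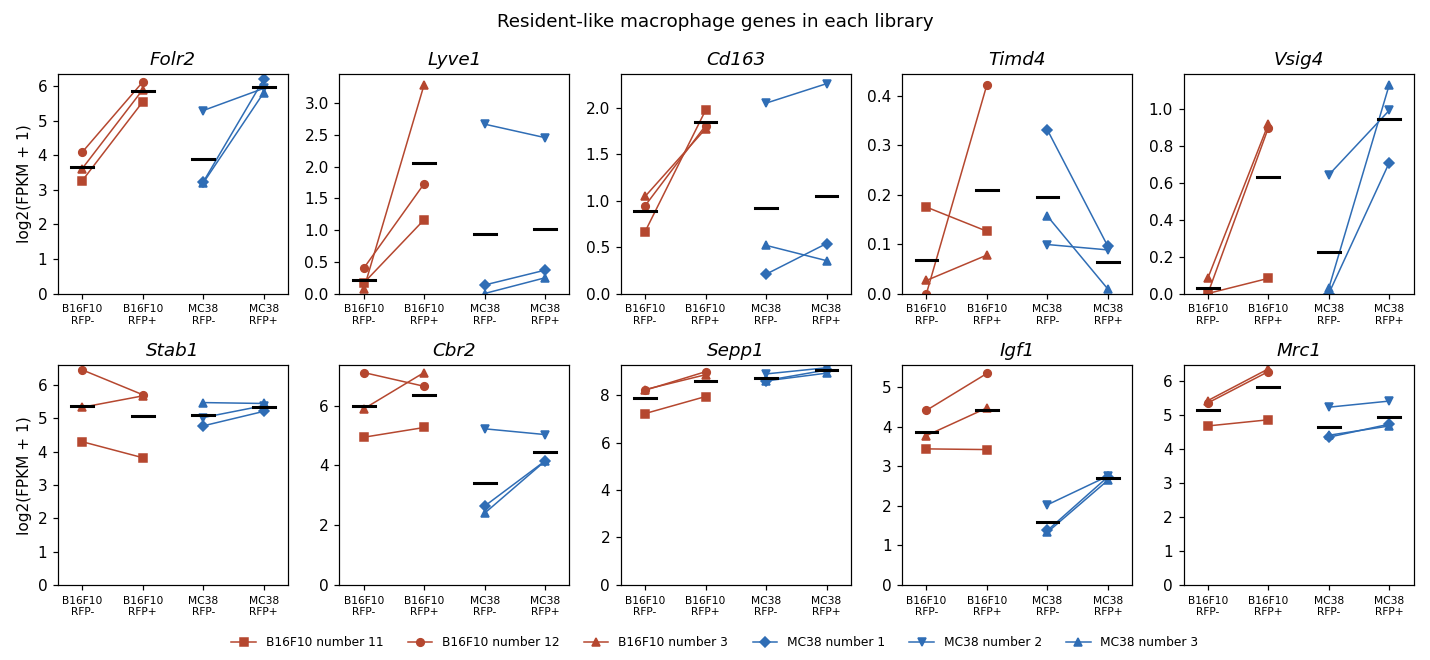
Level of each of the 10 genes, as log2(FPKM + 1), in each of the 12 libraries. Points are libraries, lines join the RFP- and RFP+ library of the same tumour and title number, black bars are means of the plotted values in each group (n = 3), and the y axis differs between genes and starts at 0. Folr2 is higher in RFP+ in all 6 pairs, while MC38 number 2 lies far above MC38 numbers 1 and 3 for Lyve1 and Cd163 in both gates.

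The other folate receptor genes were almost absent. Folr1 was listed at 0 in all 3 B16F10 RFP+ libraries and did not exceed 0.613 FPKM in any library. Izumo1r, the folate receptor relative of eggs and regulatory T cells, was listed at 0 in 3 of the 4 groups and reached 0.36 FPKM at most, in B16F10 RFP-. The carriers Slc19a1, the reduced folate carrier, and Slc46a1, the proton-coupled folate transporter, were present at 15.9 ± 1.71 and 4.82 ± 0.471 FPKM in B16F10 RFP+ and at 8.56 ± 1.02 and 7.24 ± 1.35 FPKM in MC38 RFP+ (SD, n = 3). Of 15 tested genes of folate uptake and one-carbon metabolism, 0 passed limma's test for a gate difference in B16F10, in MC38 or in their mean, with or without the block. At an unadjusted p under 0.05 the counts were 0, 0 and 1 without the block, against 9.82%, 3.35% and 7.45% of all genes, and 2, 0 and 2 with it, against 18.4%, 6.09% and 13.3%. Folr2 was thus the only folate receptor gene of the 3 with a level above 1 FPKM in any library.

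Among the receptors, Lyve1 and Cd163 were low, with gates that were apart in B16F10 and overlapped in MC38. Lyve1 (chr7:110850607-110863239, minus strand) encodes a hyaluronan receptor of lymphatic vessels and of some resident macrophages. In B16F10 it held 2.32, 1.24 and 8.81 FPKM in RFP+ numbers 12, 11 and 3 and 0.316, 0.121 and 0.0455 FPKM in RFP-. The MC38 values were 0.291, 4.49 and 0.187 FPKM in RFP+ numbers 1, 2 and 3 and 0.0975, 5.37 and 0 FPKM in RFP-. All B16F10 RFP+ libraries lay above all B16F10 RFP- ones, whereas in MC38 only number 2 exceeded 1 FPKM, and it did so in both gates. Lyve1 reached the filter of 1 FPKM in 3 libraries only through B16F10 RFP+, the group where it was high, so its B16F10 call is a description of a gene kept for that reason. The log2 gate difference was 1.85 ± 0.73 in B16F10, with a limma adjusted p of 0.482, and 0.0309 with the block (SE 0.35). That call was lost with the block when both B16F10 number 12 libraries (0.0554) or both MC38 number 2 libraries (0.0619) were left out. In MC38 the difference was 0.09 ± 0.73 (limma adjusted p = 1 with and without the block). The test of the difference between tumours gave 1.77 ± 1.04 and a limma adjusted p of 0.895, or 0.489 with the block, so the contrast between tumours was not called.

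Lymphatic endothelial cells also carry Lyve1, so their other markers were read in the same libraries. Of 6 such genes only Pdpn, which macrophages can express as well, reached 1 FPKM in every library. Ccl21a was listed at 0 in all 12 libraries. Prox1, the defining transcription factor, did not exceed 0.682 FPKM, and Flt4 did not exceed 0.815 FPKM. The summed level of the 6 genes, nearly all of it Pdpn, was 16.3 to 30.6 FPKM in B16F10 RFP+, 8.32 to 14.4 in B16F10 RFP-, 42.3 to 56.0 in MC38 RFP+ and 18.9 to 34.8 in MC38 RFP-. Among 9 blood endothelial markers, Pecam1, Egfl7, Vwf and Kdr reached 17.3, 15.7, 3.15 and 2.18 FPKM in their highest libraries. Tek did not exceed 0.0159 FPKM and Cldn5 did not exceed 0.21 FPKM in any library. The 9 genes summed to 9.97 to 20.0 FPKM over the libraries. The part of endothelial cells in the Lyve1 values was not tested.

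Cd163 (chr6:124304656-124330527, plus strand) encodes the scavenger receptor for haptoglobin-haemoglobin complexes. It held 2.5, 2.93 and 2.42 FPKM in B16F10 RFP+ numbers 12, 11 and 3 and 0.925, 0.586 and 1.06 FPKM in B16F10 RFP-. In MC38 it held 0.452, 3.79 and 0.278 FPKM in RFP+ numbers 1, 2 and 3 and 0.155, 3.14 and 0.432 FPKM in RFP-. The B16F10 groups did not overlap, and in MC38 number 2 again stood apart from numbers 1 and 3 in both gates. The log2 gate difference in B16F10 was 0.97 ± 0.49 with a limma adjusted p of 0.502, and 0.0441 with the block (SE 0.20). With the block this call, like that of Lyve1, was lost without both number 12 libraries (0.0779) or both MC38 number 2 libraries (0.0879). In MC38 the difference was 0.12 ± 0.49 (limma adjusted p = 1), and the difference between tumours was 0.84 ± 0.69 (0.895, or 0.523 with the block).

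Hmox1, the haem oxygenase that breaks down the haem taken up through CD163, was higher in RFP+ as well. In B16F10 RFP+ it averaged 794.9 ± 244 FPKM, with a lowest library of 553 FPKM, against a highest of 399 FPKM in RFP-. It averaged 186 ± 40.2 and 106 ± 17.9 FPKM in MC38 RFP+ and RFP- (SD, n = 3). Averaged over both tumours the log2 difference was 1.09 ± 0.18, with a limma adjusted p of 0.0194, or 5.62e-05 with the block. Without the block this call was lost in 5 of the 12 fits that left out 1 library (adjusted p up to 0.0725). Cd163 itself did not pass in the mean of both tumours (0.55 ± 0.35, limma adjusted p = 0.746, or 0.097 with the block). Hp, the haptoglobin gene, was present at 7.63 ± 7.12 FPKM in B16F10 RFP+ and 1.32 ± 0.505 FPKM in MC38 RFP+.

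Stab1 and Mrc1 were well expressed in every group. Stab1 (chr14:31139013-31168641, minus strand) encodes stabilin 1, a receptor that clears modified lipoproteins and secreted matrix proteins. It held 51.4, 13.1 and 50.1 FPKM in B16F10 RFP+ numbers 12, 11 and 3 and 87.0, 18.7 and 39.3 FPKM in RFP-. It held 36.0, 40.7 and 42.7 FPKM in MC38 RFP+ numbers 1, 2 and 3 and 26.4, 31.6 and 43.5 FPKM in RFP-. The gates overlapped in both tumours, and RFP+ was higher in 3 of 6 pairs. The log2 gate difference was -0.30 ± 0.51 in B16F10 and 0.25 ± 0.51 in MC38, with limma adjusted p-values of 0.824 and 1. The sign of the Stab1 difference in B16F10 turned without RFP+ number 11 (0.33) or without RFP- number 12 (0.25).

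Mrc1 (chr2:14229392-14332057, plus strand) encodes the mannose receptor CD206, which takes up glycoproteins. In B16F10 it held 75.9, 27.8 and 80.2 FPKM in RFP+ numbers 12, 11 and 3 and 39.6, 24.4 and 41.6 FPKM in RFP-. For MC38 the values were 25.3, 41.2 and 24.4 FPKM in RFP+ numbers 1, 2 and 3 and 19.2, 36.2 and 20.0 FPKM in RFP-. RFP+ was higher in 6 of 6 pairs, by ratios from 1.14 to 1.93, but the groups overlapped in both tumours. The mean gate difference was 0.48 ± 0.27 in log2, with a limma adjusted p of 0.728, or 0.0654 with the block, so Mrc1 did not pass in either fit.

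Timd4 and Vsig4 stayed under the filter of 1 FPKM in 3 libraries and were not tested. Timd4 (chr11:46810800-46844332, plus strand) encodes TIM-4, a receptor for the phosphatidylserine of dying cells. It did not exceed 0.34 FPKM in any library, was listed at 0 in B16F10 RFP- number 12, and was higher in RFP+ in 2 of 6 pairs. Vsig4 (chrX:96247203-96293438, minus strand) encodes CRIg, a receptor for complement fragments of C3. It held 0.861, 0.0585 and 0.888 FPKM in B16F10 RFP+ numbers 12, 11 and 3, and 0, 0 and 0.0593 FPKM in RFP-. In MC38 it held 0.634, 0.988 and 1.19 FPKM in RFP+ numbers 1, 2 and 3 and 0, 0.56 and 0.0204 FPKM in RFP-. Vsig4 was higher in RFP+ in 6 of 6 pairs, and the MC38 groups did not overlap, whereas in B16F10 RFP+ number 11 lay just under RFP- number 3. MC38 RFP- number 2 was again the highest of its group.

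Sepp1 and Igf1 encode secreted proteins. Sepp1 (current symbol Selenop, chr15:3268547-3280508, plus strand) encodes selenoprotein P, which carries selenium, and was the most abundant of the 10 genes in every group. It held 510.3, 246 and 467 FPKM in B16F10 RFP+ numbers 12, 11 and 3 and 296, 149 and 302 FPKM in RFP-. The MC38 values were 536, 573 and 489 FPKM in RFP+ numbers 1, 2 and 3 and 393, 478 and 389.9 FPKM in RFP-. The B16F10 groups overlapped only through RFP+ number 11, and the MC38 groups did not overlap. RFP+ was higher in 6 of 6 pairs by the narrow ratios of 1.2 to 1.72. The mean log2 gate difference of 0.53 ± 0.20 did not pass limma's test without the block (adjusted p = 0.554), whereas the block gave a call (SE 0.07, adjusted p = 0.00472). Within tumours the block gave a call in B16F10 (0.71 ± 0.11, adjusted p = 0.0084, against 0.49 without it) and none in MC38 (0.34 ± 0.11, adjusted p = 0.41). The B16F10 call was kept with the block when both number 12 libraries (0.00381) or both MC38 number 2 libraries (0.0337) were left out. The difference between tumours was 0.36 ± 0.40 and was not called (limma adjusted p = 0.905, or 0.576 with the block).

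Igf1 (chr10:87858265-87937042, plus strand) encodes insulin-like growth factor 1, a growth signal that macrophages release. In B16F10 it held 39.6, 9.69 and 21.2 FPKM in RFP+ numbers 12, 11 and 3 and 20.3, 9.82 and 12.7 FPKM in RFP-. In MC38 it held 5.63, 5.71 and 5.25 FPKM in RFP+ numbers 1, 2 and 3 and 1.59, 3.06 and 1.51 FPKM in RFP-. The MC38 gates did not overlap, and the MC38 RFP+ values lay within a ratio of 1.09 of each other, while the B16F10 gates overlapped. The mean log2 gate difference of 0.84 ± 0.28 had a limma adjusted p of 0.429, and 0.0212 with the block (SE 0.15). That call was lost with the block and scaling to the macrophage core genes (0.0788). Igf1 alone in MC38 (1.13 ± 0.39) did not pass, with an adjusted p of 1, or 0.0646 with the block. The IGF receptor gene Igf1r averaged 0.268 to 0.618 FPKM over the groups. Of the 5 tested genes of the IGF axis 0 passed limma's test in either gate comparison. At an unadjusted p under 0.05 there were 1 in B16F10 and 0 in MC38 in both fits. The shares of all genes were 9.82% and 3.35% without the block and 18.4% and 6.09% with it.

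Cbr2 (chr11:120729489-120732114, minus strand) encodes carbonyl reductase 2, an enzyme that reduces carbonyl compounds. It held 99.4, 37.6 and 137 FPKM in B16F10 RFP+ numbers 12, 11 and 3 and 137, 29.8 and 58.4 FPKM in RFP-. For MC38 the values were 16.8, 31.7 and 16.7 FPKM in RFP+ numbers 1, 2 and 3 and 5.22, 36.4 and 4.27 FPKM in RFP-. The B16F10 gates overlapped fully. In MC38 numbers 1 and 3 were over 3-fold higher in RFP+, whereas number 2 was high in both gates. The MC38 difference of 1.02 ± 0.71 in log2 did not pass (limma adjusted p = 1, or 0.544 with the block).

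Counted together, 4 of the 8 tested members rose in B16F10 RFP+ cells with the block (Folr2, Cd163, Sepp1 and Lyve1, the last kept by the filter only through that group), where 0.830% of the 11808 tested genes were called higher and 0.525% lower. Without the block 0 members were called in B16F10, against 0.127% of all genes called higher. In that fit 3 members (Folr2, Sepp1 and Lyve1) had an unadjusted p under 0.05, as did 9.82% of all genes. Lyve1 adds to this count, and to the member medians below, as a gene kept only through B16F10 RFP+. In MC38 limma called 1 member with the block (Folr2), against 0.356% of genes called higher, and 0 without it, against 0.0254%, with 2 members and 3.35% of all genes at an unadjusted p under 0.05. For the mean of both tumours 1 member was called (Folr2), against 0.339% of genes called higher, and 3 with the block (Folr2, Sepp1 and Igf1), against 1.32% of genes called higher and 0.601% lower. None of the 8 was called lower in these fits. In the mean 3 members had an unadjusted p under 0.05 without the block, against 7.45% of all genes. With the block 6 members in B16F10, 4 in MC38 and 7 in the mean did, against 18.4%, 6.09% and 13.3%. Lyve1, with its limit from the filter, is among those of B16F10 and the mean with the block. The median log2 gate difference of the 8 members was 0.69 in B16F10, 0.31 in MC38 and 0.62 for the mean, against medians of all tested genes of -0.01, 0.00 and -0.00. For the difference of gate differences between tumours 0 members were called in either fit, against 0% of all genes without the block and 0.0339% with it. At an unadjusted p under 0.05 there were 0 members without the block and 3 with it, against 3.85% and 8.55% of all genes. The 3 were Cd163, Sepp1 and Lyve1, the last with the same limit from the filter.

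**Figure D2:**
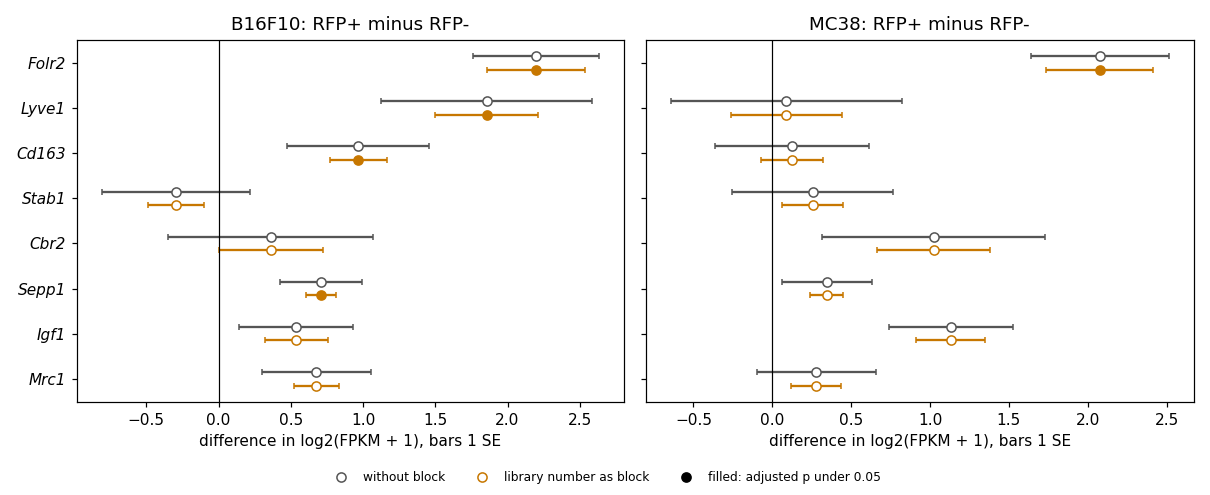
Difference RFP+ minus RFP- in log2(FPKM + 1) for the 8 tested members in B16F10 (left) and MC38 (right), with bars of 1 SE. Grey points are from the fit without a block and orange points from the fit with the library number as a block, and filled points have a limma adjusted p under 0.05. Folr2 has about the same difference in both tumours (2.2 and 2.08), while Lyve1 and Cd163 lie at 1.85 and 0.97 in B16F10 and at 0.09 and 0.12 in MC38, differences between tumours that were not called.

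Markers of dendritic cells, which share MHCII and can share the gate, had lower sums in RFP+ than in RFP- within each number of both tumours. The groups overlapped in MC38 and not in B16F10. In MC38 numbers 1, 2 and 3 the sums were 35.6, 51.2 and 28 FPKM in RFP+ and 53.6, 88.5 and 46.2 FPKM in RFP-. The 8 dendritic genes summed to 13.5 to 20.7 FPKM in B16F10 RFP+ against 28.8 to 54.4 FPKM in RFP-, and to 28 to 51.2 FPKM against 46.2 to 88.5 FPKM in MC38. In the mean of both tumours 0 of the 8 were called higher and 1 (Xcr1) lower, against 0.110% of all genes, and with the block 2 were lower (Xcr1 and Ccr7), against 0.601%. The mean macrophage core level was 0.22 log2 units higher in RFP+ in B16F10 and 0.11 higher in MC38. The part of these shifts in the member differences was not tested, except that scaling each library to its core genes left the mean Folr2 difference at 1.96 (limma adjusted p = 0.00597).

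Between tumours, the members did not move as a group. In RFP+ cells 2 of 8 were higher in B16F10 than in MC38, against 35.2% of all genes higher and 20.0% lower, and in RFP- cells 2 were higher and 1 lower, against 37.8% and 21.9%. The member shares were thus near or below those of all genes. Igf1 was 23.5 ± 15.1 against 5.53 ± 0.25 FPKM in RFP+ and 14.2 ± 5.40 against 2.06 ± 0.873 FPKM in RFP- (SD, n = 3). Every B16F10 library was above every MC38 library, and the log2 differences were 1.70 ± 0.39 (limma adjusted p = 0.0025) and 2.30 ± 0.39 (0.000244). Cbr2 was also higher in B16F10, by 1.90 ± 0.71 in RFP+ (limma adjusted p = 0.0358) and by 2.56 ± 0.71 in RFP- (0.00703), though in RFP- the highest MC38 library, number 2 at 36.4 FPKM, lay above B16F10 number 11 at 29.8 FPKM. The Cbr2 call in RFP+ was lost when any 1 of B16F10 RFP+ numbers 12 and 3 and MC38 RFP+ numbers 1 and 3 was left out (adjusted p from 0.095 to 0.129). The call in RFP- was lost without both B16F10 number 12 libraries (0.0512) and kept without them with the block (0.0351). Sepp1 was lower in B16F10 RFP- by 0.82 ± 0.29 in log2 (limma adjusted p = 0.0247), a call lost without B16F10 RFP- number 11 (0.111) or MC38 RFP- number 2 (0.0822).

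Mrc1 in RFP+ was 61.3 ± 29.1 FPKM in B16F10 and 30.3 ± 9.43 FPKM in MC38, a log2 difference of 0.89 ± 0.38 with a limma adjusted p of 0.0603. With the block it became the third member called (0.0403), where 34.9% of genes were called higher. Folr2 did not pass between tumours in RFP+ (-0.13 ± 0.44, limma adjusted p = 0.823) or in RFP- (-0.25 ± 0.44, 0.645). The RFP- value of Folr2 rested on MC38 number 2, since without that library it was 0.45. Cd163 in RFP+ was not called (0.80 ± 0.49, limma adjusted p = 0.181), but without MC38 RFP+ number 2 it was (1.41, adjusted p = 0.0149). Lyve1 in RFP+ was called only when both MC38 number 2 libraries were left out or the core genes were used for scaling (1.76, limma adjusted p = 0.0106, and 2.07, 0.00337).

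The B16F10 libraries held less RNA of the macrophage core and much melanocytic RNA, so the members were also set against the core. As a percentage of the geometric mean of the 12 core genes, Folr2 was 31.9 ± 0.949% in B16F10 RFP+, 7.63 ± 1.21% in B16F10 RFP-, 9.10 ± 1.94% in MC38 RFP+ and 2.83 ± 2.66% in MC38 RFP- (SD, n = 3). On this scale the 3 B16F10 RFP+ libraries lay between 31.0 and 32.9%, all above the MC38 RFP+ range of 7.19 to 11.1%. The core itself was 1.96 log2 units lower in B16F10 than in MC38 in RFP+ and 2.07 lower in RFP-. After scaling to the core, 8 of 8 members were called higher in B16F10 RFP+ and 7 of 8 in RFP-, but so were 85.3% and 85.0% of all tested genes, which moved with the same shift. The median of the members was then 1.98 in RFP+ and 1.97 in RFP-, against 1.82 and 1.92 for all genes. The direction of Folr2, Stab1 and Sepp1 in RFP+ and of Folr2, Cd163 and Sepp1 in RFP- turned with this scaling, which took Sepp1 in RFP- from -0.82 to 1.25. Cbr2 and Igf1 were higher in B16F10 on both scales.

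**Figure D3:**
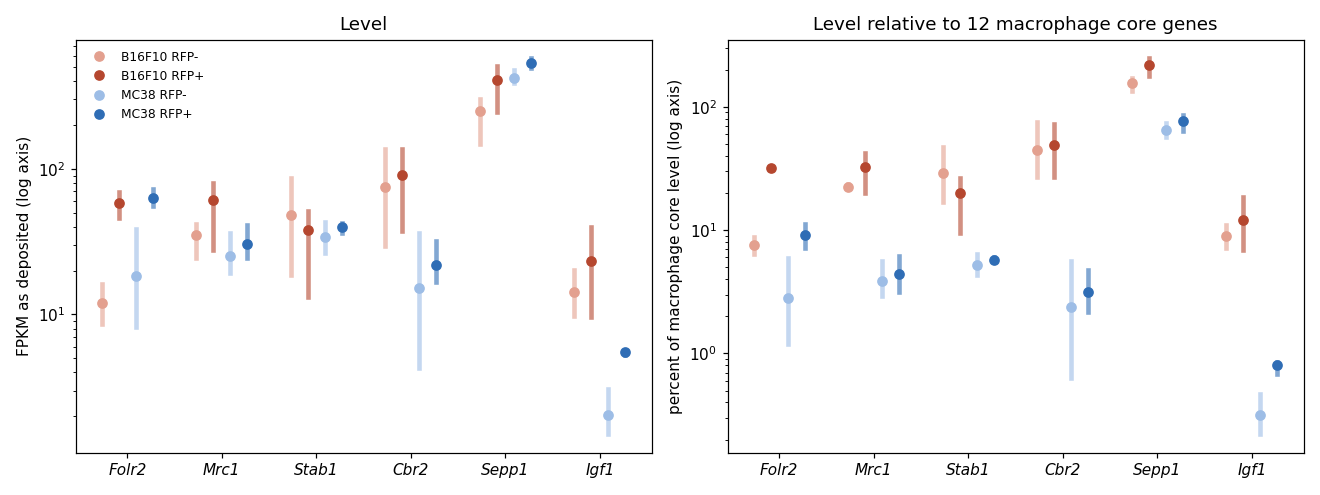
Levels of 6 well-expressed members as deposited (left, FPKM) and as a percentage of the macrophage core level (right), both on log axes. Points are group means and bars run from the lowest to the highest of 3 libraries. Folr2 is about equal in the RFP+ cells of both tumours in FPKM (57.9 and 62.8) and separated on the core scale (31.9% and 9.10%).

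Libraries of the same number resembled each other in these genes across gates. In MC38, number 2 was at least 1 log2 unit above numbers 1 and 3 in both gates for 2 of 8 members, Lyve1 and Cd163, and for 0.152% of all tested genes. The pattern was defined after it was seen in these members, so the share is given as a description. MC38 number 2 also held the highest Mrc1, Sepp1, Igf1 and Cbr2 in both gates and the highest Folr2 and Vsig4 in RFP-. Of 26 other resident-like genes tested, F13a1 and Ednrb showed the same pattern. MC38 number 2 also had the highest summed dendritic markers of its group in each gate, 51.2 and 88.5 FPKM, and the part of this in the member levels was not tested. In B16F10, number 11 was the lowest in both gates for 6 of 8 members (Folr2, Stab1, Cbr2, Sepp1, Igf1 and Mrc1) and for 19.2% of all tested genes, again a pattern defined after it was seen. That library pair also had the lowest macrophage core sums (6420 and 4672 FPKM) and the highest melanocytic sums (10250 and 10270 FPKM) of its groups. Lyve1 followed it in RFP+ alone and Cd163 in RFP- alone, and Cd163 in RFP+ was highest in number 11.

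**Figure D4:**
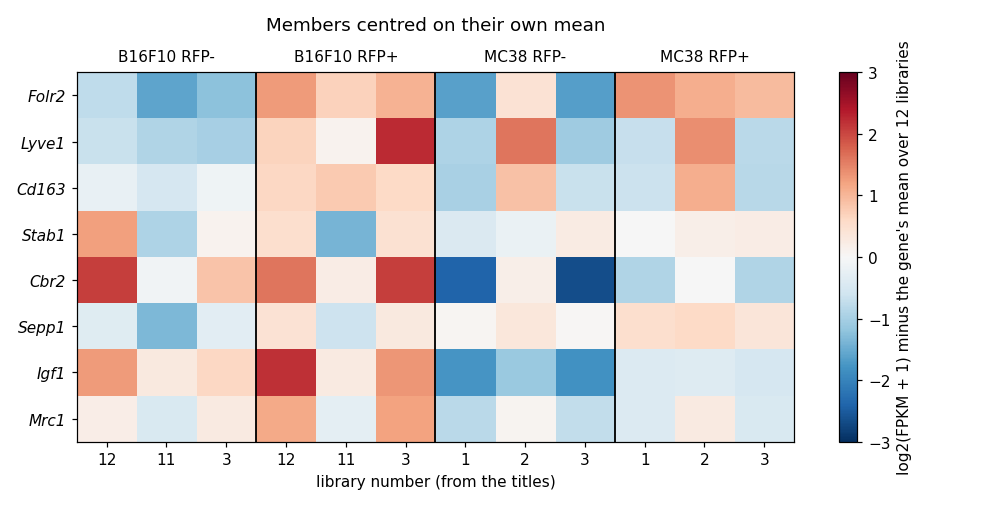
Each tested member in each library, as log2(FPKM + 1) minus the gene's own mean over the 12 libraries; columns are libraries by title number and rows are genes. Red is above and blue below the gene's mean. Folr2 is higher in every RFP+ than in every RFP- library, though MC38 RFP- number 2 also lies above the gene's mean. Igf1 parts B16F10 from MC38. Cbr2 does so less cleanly, since before centring MC38 RFP- number 2 (5.23) is above B16F10 RFP- number 11 (4.94), with the gene's mean between them. MC38 number 2 is red for Lyve1 and Cd163 in both gates.

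The members thus did not share 1 pattern over the libraries. Likeness was measured as the root mean square difference of log2(FPKM + 1) after each gene was centred on its own mean over the 12 libraries, with smaller values for more similar genes. The closest pairs were Cd163 and Mrc1 (0.55), Stab1 and Sepp1 (0.62), Lyve1 and Cd163 (0.65) and Cbr2 and Igf1 (0.65). Folr2 and Cbr2 were far apart (1.51). Among 7749 genes with a mean of at least 5 FPKM, the 8 genes most like Folr2 were S1pr1 (0.61), Ccl8 (0.67), Emp1 (0.71), Ctsl (0.72), Adam8 (0.76), Rgcc (0.77), Mmp12 (0.78) and Ltc4s (0.81). Sepp1 had rank 37 in that order and Mrc1 rank 90, whereas Stab1, Igf1 and Cbr2 had ranks 4033, 5105 and 6520. The likeness is a description, and the libraries behind it share depth, core level and melanocytic RNA within a tumour.

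S1pr1, a sphingosine 1-phosphate receptor, averaged 6.43 ± 1.79 and 2.5 ± 1.02 FPKM in B16F10 RFP+ and RFP- and 11.9 ± 4.73 and 3.65 ± 3.02 FPKM in MC38 RFP+ and RFP-. Ccl8, a chemokine, averaged 924 ± 386, 349 ± 262, 947 ± 275 and 436 ± 76.9 FPKM in the same order (SD, n = 3). Both genes had a higher mean in RFP+ than in RFP- in each tumour, as Folr2 did. They were selected for likeness to Folr2 over these same libraries, so the shared direction is no separate result. Ctsl, a lysosomal protease, averaged 311 ± 26.0, 92.7 ± 7.23, 245 ± 42.2 and 162 ± 29.3 FPKM, and Mmp12, the macrophage elastase, averaged 364 ± 21.9, 75.1 ± 27.2, 146 ± 47.1 and 45.0 ± 27.2 FPKM in that order.

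Other resident-like genes were read from a list of 32, of which 26 were tested. Without the block limma called 0 of them in B16F10, MC38 or the mean. At an unadjusted p under 0.05 there were 5, 1 and 6, as were 9.82%, 3.35% and 7.45% of all genes. The block raised these unadjusted counts to 12, 7 and 14, beside 18.4%, 6.09% and 13.3% of all genes. With the block 3 rose in B16F10 (F13a1, Ccl24 and Ednrb), 1 in MC38 (F13a1) and 5 in the mean, and none fell, beside 0.830%, 0.356% and 1.32% of all genes called higher. F13a1, a clotting factor subunit, was 355 ± 209 against 112 ± 65.5 FPKM in B16F10 RFP+ and RFP- and 43.8 ± 33.2 against 21.9 ± 26.7 FPKM in MC38 (SD, n = 3). Its mean log2 difference of 1.48 had a limma adjusted p of 0.000847 with the block (SE 0.16) and 0.544 without it. Ccl24, a chemokine for eosinophils, differed by 2.19 in B16F10 (block adjusted p = 0.00283 by limma, and 0.495 without it) but was 7.67 ± 8.65 against 7.49 ± 6.27 FPKM in MC38. Ednrb, an endothelin receptor, differed by 1.97 in B16F10 (0.00124 with the block, 0.396 without). Fcna, ficolin A, was called in the mean with the block (1.02 ± 0.21, limma adjusted p = 0.0364). Maf, the gene of the factor whose half-site is marked above, did not pass in the mean, with 0.40 ± 0.20 and a limma adjusted p of 0.698, or 0.115 with the block. The median gate difference of the 26 genes was 0.37 in B16F10 and 0.20 in MC38. Between tumours 6 of the 26 were higher and 7 lower in B16F10 in each gate, beside 35.2% of all genes higher and 20.0% lower in RFP+ and 37.8% and 21.9% in RFP-, among them Ednrb and F13a1 higher and Klf2 and Klf4 lower.

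Among 12 other scavenger and hyaluronan receptors tested, 2 rose with the gate in the mean of both tumours, beside 0.339% of all genes. Cd36, a fatty acid and lipoprotein receptor, was 102 ± 3.00 against 34.8 ± 13.6 FPKM in B16F10 RFP+ and RFP- and 34.5 ± 7.99 against 20.4 ± 5.73 FPKM in MC38 (SD, n = 3). It rose in the mean of both tumours by 1.17 ± 0.19 (limma adjusted p = 0.016) and in B16F10 by 1.60 ± 0.27 (0.0431). The B16F10 call of Cd36 was lost in 8 of the 12 fits that left out 1 library (adjusted p up to 0.159) and kept with the block (0.00191). Its mean call was lost without MC38 RFP+ number 1 or number 2 (0.0534 and 0.0662) and with core scaling (0.148). Msr1, a class A scavenger receptor, rose in the mean by 0.76 ± 0.14 (limma adjusted p = 0.0413, or 0.00335 with the block). Without the block that call was lost in 10 of the 12 fits that left out 1 library (adjusted p up to 0.125). Stab2, the closest relative of Stab1, averaged at most 0.186 FPKM and Mrc2, a relative of Mrc1, at most 0.383 FPKM in any group. Marco, another scavenger receptor, averaged 1.19 ± 1.55 FPKM in B16F10 RFP+ and 0.801 ± 0.355 FPKM in MC38 RFP+, against 0.129 ± 0.174 and 0.112 ± 0.0402 FPKM in RFP-, and was not tested. Between tumours 4 of the 12 were higher and 5 lower in B16F10 in each gate, beside the shares of all genes given above. Within RFP+ cells Hmmr, a hyaluronan receptor of dividing cells, was higher in B16F10 than in MC38 by 1.65 ± 0.16 (limma adjusted p = 2.54e-06). The part of melanoma RNA in this value was not tested. Scarf1, a receptor for modified lipoproteins, was lower in B16F10 RFP+ than in MC38 RFP+. It was at 2.86 against 13.6 FPKM, a difference of -1.98 ± 0.31 (limma adjusted p = 0.000126).

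Of 16 tested ligands and partners of single members, Hmox1 alone passed limma's test for the mean of both tumours without the block, and 5 had an unadjusted p under 0.05, as did 7.45% of all genes. With the block Hmox1 and Itgam rose and Axl fell in that mean, beside 1.32% of all genes called higher and 0.601% lower. Axl, a receptor tyrosine kinase for the clearance of dying cells, was 17.0 ± 5.34 against 39.5 ± 15.2 FPKM in B16F10 RFP+ and RFP- (SD, n = 3). It fell by 1.13 on the log2 scale in B16F10 with the block (limma adjusted p = 0.00275, against 0.212 without it), while MC38 gave -0.18 ± 0.28. Of 10 genes of monocyte-derived macrophages, 0 passed limma's test in either gate comparison in both fits. At an unadjusted p under 0.05 there were 2 in B16F10 and 0 in MC38 without the block, against 9.82% and 3.35% of all genes. With the block there were 4 and 1, against 18.4% and 6.09%. For the mean of both tumours there were 2 without the block and 6 with it, against 7.45% and 13.3% of all genes. The median difference of the 10 genes was -0.26 in B16F10 and -0.12 in MC38, with 7 of 10 negative in each.

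Between tumours, 6 of the 10 monocyte-derived genes were lower in B16F10 and none higher in RFP+, and the same counts held in RFP-, against the 20.0% and 21.9% of all genes called lower. Cx3cr1, a chemokine receptor, was 3.36 ± 1.96 FPKM in B16F10 RFP+ and 72.4 ± 9.76 FPKM in MC38 RFP+ (SD, n = 3). Its log2 difference was -4.16 ± 0.27 (limma adjusted p = 5.14e-08), in libraries whose core level differed by -1.96. Scaling to the core turned Itga4, an integrin gene of that list, in RFP- to 0.25. Of the 15 folate and one-carbon genes, 11 were higher in B16F10 in each gate, beside 35.2% of all genes in RFP+ and 37.8% in RFP-, and 2 were lower in RFP+ and 3 in RFP-, beside 20.0% and 21.9%. Mthfd2, a mitochondrial folate enzyme, was higher in B16F10 RFP+ than in MC38 RFP+ by 1.95 ± 0.20 (limma adjusted p = 3.18e-06), beside the melanocytic RNA of the B16F10 libraries. The part of melanoma cells in these values was not tested.

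Promoter windows were found in RefSeq's GRCm38.p6 table for 9 of the 10 members, 12 windows in all. Those of Cd163 and Sepp1 are printed because both rose with Folr2 in B16F10 RFP+ cells with the block. In addition to the MAF half-site, the letters GAGGAA of the macrophage factor PU.1 and the STAT6 pattern TTCNNNNGAA were searched on both strands, and 28.3% and 7.0% of all windows hold them. The window of Cd163 is chr6:124304401-124304700 on the plus strand, and that of the first listed start of Sepp1 is chr15:3270517-3270816 on the plus strand. Capitals mark the matches, which do not overlap.
Cd163: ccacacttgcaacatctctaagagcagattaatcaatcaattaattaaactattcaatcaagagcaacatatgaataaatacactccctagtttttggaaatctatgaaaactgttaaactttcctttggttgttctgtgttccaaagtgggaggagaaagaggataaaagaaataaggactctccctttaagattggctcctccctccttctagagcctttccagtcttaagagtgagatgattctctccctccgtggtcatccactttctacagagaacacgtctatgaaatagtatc
Sepp1: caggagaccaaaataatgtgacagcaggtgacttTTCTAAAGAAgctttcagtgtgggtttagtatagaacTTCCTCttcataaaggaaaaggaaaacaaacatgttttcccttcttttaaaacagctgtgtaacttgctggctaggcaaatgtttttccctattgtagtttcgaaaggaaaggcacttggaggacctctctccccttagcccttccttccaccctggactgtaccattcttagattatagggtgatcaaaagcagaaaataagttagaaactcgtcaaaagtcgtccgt
The Cd163 window held none of the 3 motifs. The Sepp1 window held 1 PU.1 match 179 bases before the start and 1 STAT6 match 216 bases before it, and the Folr2 windows held neither. Among the other members the MAF half-site was found in windows of Timd4, Vsig4, Stab1 and Cbr2, the PU.1 letters in those of Vsig4, Stab1, Cbr2, Igf1 and Mrc1, and the STAT6 pattern in that of Cbr2. Folr2, Cd163 and Sepp1 thus had none of the 3 motifs in common within these windows, and a match or its absence is a description of the letters only.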

How the data were processed

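Gene expression was measured in 12 libraries of sorted macrophages, 3 in each of 4 groups by tumour and RFP gate. Per the labels' protocols, total RNA was taken up in TRI Reagent, cDNA was made with the SMART-Seq HT kit and libraries with Nextera XT. The deposited tables give FPKM per gene symbol, per the file headers. Per the submitters' processing notes, the authors used Cuffdiff 2.2.1, TopHat2 2.1.1, SAMtools 0.1.18 and Bowtie2 2.2.8 with the mm10 build. Which gene annotation and strand setting were used is not given in the sources used here. Titles call the gates mche pos and neg, and the descriptions call the same libraries RFP(+) and RFP(-). The descriptions were used for the grouping.

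FPKM are not counts, so log2(FPKM + 1) was tested with limma 3.58.1 (empirical Bayes with a trend) in R 4.3.3. The filter asked for 1 FPKM or more in 3 or more libraries and kept 11808 of 24346 genes. One model of 4 group means had 8 residual degrees of freedom, and p-values were two-sided and Benjamini-Hochberg adjusted over all kept genes, with a threshold of 0.05. The scripts were tested on simulated data. Figures used Python 3.11.15, numpy 2.4.6 and matplotlib 3.10.9. FPKM depend on the RNA of all cells in a library, so melanoma RNA lowers the FPKM of macrophage genes, and the number of reads behind a value is unknown.

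Gate libraries with the same title number deviated together from their group means. The correlations over genes were 0.2279, 0.4354, 0.2994, 0.2645, 0.3033 and 0.4433, against -0.3062 to 0.0178 for different numbers. The number was therefore also fitted as a replicate block, fixed for gate comparisons (4 residual degrees of freedom) and random for tumour comparisons (consensus correlation 0.2912). The pairing comes from the titles and this check, and no label says what a number stands for.

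All 10 members were named. From each other list, up to 4 called genes with the largest difference were named for each comparison, and the 8 genes nearest to Folr2 had a mean of at least 5 FPKM. Folate receptor and carrier genes, Hp, Igf1r, Maf, Stab2, Mrc2, Marco and the marker genes were named after their values were seen. Members and lists were chosen with earlier results of these data known. Of the 27 alternative settings, 22 were planned and 5 were added after seeing the data: leaving out both MC38 number 2 or both B16F10 number 12 libraries, each with and without the block, and the block with core scaling. Gene positions are from GENCODE on GRCm38 and promoter windows from RefSeq on GRCm38.p6.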

Additional observations from a re-analysis of the deposited data

How the results depend on the processing

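Of 27 settings besides the one reported, 12 left out 1 library. For the gate in B16F10, 0 members were called as reported. The count was 4 with the replicate block and with the block and core scaling, 2 with the block without both MC38 number 2 or both B16F10 number 12 libraries, 1 with core scaling, the compared groups alone, array weights or no MC38 number 2 pair, and 0 to 1 without single libraries. For MC38 (0 reported) it was 1 with array weights, the block, no number 2 pair or the block without it, 3 with the block once the number 12 pair was out, and 0 to 1 without single libraries. For the mean (1 reported) it was 0 with no filter or no number 12 pair, 2 with array weights or the block and core scaling, and 3 with the block or the block without either pair. The difference between tumours gave 0 in the 26 settings run for it; the compared groups alone were not run for it or for the mean. Beside the member calls printed in the report, the block changed no other member call. For B16F10 against MC38 in RFP+ (2 reported) it was 1 with no filter or no number 12 pair. It was 5 without the number 2 pair and 8 with core scaling, each with or without the block, and 1 to 4 without single libraries. With the block and no number 12 pair it stayed at 2, but Igf1 was called higher, Sepp1 was called lower and Cbr2 was not called. In RFP- (3 reported) it was 7 with core scaling with or without the block, 4 with array weights, which added Mrc1, and 2 with no filter, without either number pair or with the number 2 pair out and the block in; leaving out single libraries gave 2 to 3.

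Signs turned for values that were mostly not called; ranges are over fits without 1 library. In the B16F10 gate Stab1 was 0.12 with array weights and ranged from -0.83 to 0.33, and Cbr2 from -0.16 to 0.93. In the MC38 gate Lyve1 was -0.0068 with a pseudocount of 5 and ranged from -0.63 to 0.96, and Cd163 from -0.48 to 0.69. In the mean Stab1 was 0.031 with quantile normalization, 0.21 with array weights and 0.093 without the number 12 pair, with or without the block, and ranged from -0.29 to 0.29. In the difference between tumours Folr2 was -0.59 without the number 2 pair with or without the block and ranged from -0.57 to 0.48, and Stab1 ranged from -1.08 to 0.075. Arg1 there was -0.044 with core scaling with or without the block and -0.53 with array weights, and ranged from -0.18 to 0.39.

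Between tumours, core scaling, with or without the block, gave in RFP+ 1.80 for Folr2, 1.62 for Stab1, 1.51 for Sepp1 and 0.63 for Irs2, and in RFP- 1.65 for Folr2, 0.90 for Cd163, 1.25 for Sepp1, 0.27 for Msr1, 0.66 for Scarb2, 0.29 for Igfbp6, 1.01 for Irs2 and 0.25 for Itga4. These follow the shift of all genes by that scaling, which also moved the median gate difference of all genes in B16F10 to -0.21. In RFP+ Stab1 was 0.069 with array weights and ranged from -0.60 to 0.35, and Folr2 from -0.26 to 0.028. In RFP- without the number 2 pair, with or without the block, Folr2 was 0.45, Lyve1 0.14 and Cd163 0.52. The ranges in RFP- were -0.60 to 0.45 for Folr2, -1.19 to 0.14 for Lyve1, -0.40 to 0.52 for Cd163 and -0.28 to 0.80 for Stab1. Cd163 was 0.30 with a pseudocount of 0.1 and 0.23 with array weights, and Stab1 -0.28 without the number 12 pair with or without the block. The cause of the other changes was not tested.

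Over the settings, the genes called higher ranged from 3 to 128 in the B16F10 gate (15 reported), 1 to 122 in MC38 (3), 13 to 218 in the mean (40), 3319 to 10403 between tumours in RFP+ (4159) and 3496 to 10372 in RFP- (4467). Those called lower ranged from 0 to 808 (6), 0 to 28 (0), 0 to 202 (13), 316 to 3014 (2364) and 299 to 3291 (2584), and for the difference between tumours 0 to 4 in all (0). With 3 libraries a group, Lyve1, Timd4 and Vsig4 lie near the level of few reads, above all in the B16F10 libraries, which were shallower by the indirect estimate.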

Other observations

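The 2 members that set MC38 number 2 apart, Lyve1 and Cd163, belong to the 18 genes of all 11808 that were at least 1 log2 unit above numbers 1 and 3 in both gates. The genes named here were chosen after their values were seen, and no test was made. Retnla, which encodes RELM alpha of alternatively activated macrophages, held 166, 780.2 and 36.1 FPKM in MC38 RFP+ numbers 1, 2 and 3 and 224, 1406 and 6.96 FPKM in RFP-. Mgl2, a galactose-binding lectin gene of macrophages and dendritic cells, held 4.12, 25.9 and 5.75 FPKM in RFP+ and 6.62, 59.8 and 4 FPKM in RFP-. Ccl6, a chemokine gene, held 234, 636 and 204 FPKM in RFP+ and 162, 631 and 112 FPKM in RFP-. F13a1 held 19.1, 81.5 and 30.7 FPKM in RFP+ and 6.17, 52.8 and 6.84 FPKM in RFP-. That number 2 is the highest in both gates is how these genes were selected. Folr2, in contrast, was highest in number 2 in RFP- and in number 1 in RFP+.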
